A study of Mus musculus with 6 samples.

Results

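The 10 genes described here mark basophils and mast cells: *Mcpt8*, *Prss34*, *Cpa3*, *Hdc*, *Fcer1a*, *Ms4a2*, *Cd200r3*, *Il4*, *Gata2* and *Kit*. They were followed in RNA sequencing of splenic monocytes and were found by symbol among the 55421 genes of the count tables. The genes were picked from known genes of these cell types and selected on their counts in IL-4Rα-/- against IL-4Rα+/+ mice in these same libraries. Each comparison of the genotypes is a description and no test of it is read. A filter on low counts kept 13849 genes, among them 9 of the 10, and left out *Il4*.

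Each genotype, IL-4Rα+/+ and IL-4Rα-/-, was represented by 3 mice of the C57BL/6 strain with 1 library per mouse. The mice were 8 to 16 weeks old, and no treatment is named for either group. IL-4Rα is the receptor chain that the receptors for IL-4 and IL-13 share. The IL-4Rα-/- mice lack it in the whole body, so every cell type of their spleen carries the deletion and not the monocytes alone. Monocytes were enriched untouched, by taking the other spleen cells out with antibodies and magnetic beads, and cells that this step misses stay in the sample.

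Basophils are rare blood granulocytes and mast cells are their counterparts in tissue. Both carry the high-affinity receptor for IgE, FcεRI, which is built from an IgE-binding α chain (*Fcer1a*), a signal-amplifying β chain (*Ms4a2*) and a γ chain that many myeloid cells share, and both release histamine and granule proteases when antigen cross-links the bound IgE. In the mouse, MCPT8 and PRSS34 are proteases of basophils, whereas chymases and tryptases fill the granules of connective tissue mast cells. GATA2 is a transcription factor required for both lineages, KIT is the receptor for stem cell factor that mast cells keep and mature basophils lack or nearly lack, and basophils are a source of IL-4.

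GATA factors bind to DNA around the letters GATA, so the promoters of the 10 genes are shown by this feature, which played no part in choosing them. The RefSeq promoters of the GRCm38.p6 mouse assembly held all 10 genes with 13 start sites, and the 250 bases before each start were searched on both strands for the letters AGATAA, in the same way for TGATAA, and likewise with a last G for AGATAG or for TGATAG, and matches could overlap. At least 1 match was found at any start site of 7 of the 10 genes (70%), against 29.7% of the 27025 genes searched. Counted by start site, 7 of the 13 (53.8%) held a match, against 26.5% of all 32851 start sites. *Ms4a2* and *Cd200r3* each held 3 matches. Of all promoters 6.40% held 2 or more, and the share with 3 or more was not counted. *Mcpt8*, *Gata2* and *Kit* had none of these letters in the window. For the 5 genes whose granule protein or surface receptor stands at the centre of the results and which have a match close to the start, the 120 bases before the start are printed 5′ to 3′ in the direction of the gene, with the matches in capitals. A match on the opposite strand reads as TTATCT or TTATCA.
*Prss34*, chr17:25298274-25298393, plus strand: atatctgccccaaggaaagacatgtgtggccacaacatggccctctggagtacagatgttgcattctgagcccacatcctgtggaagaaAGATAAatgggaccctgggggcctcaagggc
*Cpa3*, chr3:20242182-20242301, minus strand: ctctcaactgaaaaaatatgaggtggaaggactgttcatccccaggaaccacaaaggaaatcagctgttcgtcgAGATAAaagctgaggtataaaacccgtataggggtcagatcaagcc
*Fcer1a*, chr1:173227230-173227349, minus strand: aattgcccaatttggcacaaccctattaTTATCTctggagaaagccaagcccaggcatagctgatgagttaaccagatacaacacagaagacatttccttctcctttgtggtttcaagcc
*Ms4a2*, chr19:11623720-11623839, minus strand: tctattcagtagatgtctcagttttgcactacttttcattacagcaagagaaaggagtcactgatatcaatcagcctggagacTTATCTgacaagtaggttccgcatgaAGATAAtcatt
*Cd200r3*, chr16:44943558-44943677, plus strand: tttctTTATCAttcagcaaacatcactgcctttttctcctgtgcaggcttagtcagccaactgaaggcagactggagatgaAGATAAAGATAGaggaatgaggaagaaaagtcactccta
The single match of *Prss34* began 31 bases before the start and that of *Cpa3* 46 bases before it, both as AGATAA in the direction of the gene. In *Cd200r3* an AGATAA and an AGATAG lay side by side, 39 and 33 bases before the start. *Ms4a2* had another match farther out, 224 bases before the start, which lies beyond the printed length. These matches describe letters and were not tested as binding sites.

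The libraries held 26807281 to 29033297 reads on genes, so that 3 counts, below which a gene was taken as not seen, equalled 0.103 to 0.112 CPM, that is, counts scaled to a common library total. The targeted gene, *Il4ra*, had 3550 to 4686 counts in IL-4Rα+/+ and 781 to 2268 in IL-4Rα-/- libraries, with the highest of the latter in IL-4Rα-/- replicate 2 (79.4 CPM, against 27.9 and 31.8 CPM in replicates 1 and 3). Monocyte markers were abundant, with a summed level of 15160 to 22517 CPM in IL-4Rα+/+ and 18277 to 23700 CPM in IL-4Rα-/- libraries, and *Csf1r*, the receptor for the monocyte growth factor CSF-1, had a mean of 2632 CPM. *Xist*, the transcript of the inactive X chromosome, had 15739 counts in IL-4Rα+/+ replicate 1 and 13512 in IL-4Rα-/- replicate 3, and at most 103 in the other 4 libraries. Levels of single genes are CPM after TMM scaling, and fold changes are log2 differences of IL-4Rα-/- over IL-4Rα+/+ with their standard error from edgeR's quasi-likelihood fit over all 13849 genes.

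Added over the 10 genes, the level was higher in each IL-4Rα-/- library than in any IL-4Rα+/+ library. The sum was 30.5, 20.4 and 31.6 CPM in IL-4Rα+/+ replicates 1, 2 and 3, and 76.6, 42.9 and 60.1 CPM in IL-4Rα-/- replicates 1, 2 and 3. The means were 27.5 ± 6.20 CPM (SD, n = 3) and 59.9 ± 16.8 CPM (SD, n = 3), a ratio of 2.18, and the lowest IL-4Rα-/- library lay 1.36 times above the highest IL-4Rα+/+ library. That lowest library, IL-4Rα-/- replicate 2, was also the IL-4Rα-/- library with the most *Il4ra* reads. It held the most RNA of 10 listed pancreatic enzymes too, 285 CPM against 0.135 to 31.3 CPM in the other libraries. Whether either bears on the 10 genes was not tested. Without IL-4Rα-/- replicate 2 the log2 ratio of the means was 1.31, against 1.12 with all libraries. These are small numbers of reads, between 563 and 2146 counts per library for the 10 genes together. In the libraries high in *Xist*, 1 of each genotype, the sum was 30.5 CPM in IL-4Rα+/+ and 60.1 CPM in IL-4Rα-/-. The other libraries had 20.4 and 31.6 CPM against 76.6 and 42.9 CPM. In bulk RNA, more cells of a type and more RNA per cell cannot be told apart.

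Gene by gene, 7 of the 10 had no overlap between the genotypes, all of them higher in IL-4Rα-/-, where 7.63% of all genes tested were higher without overlap. Since the genotype contrast helped to choose the genes, nothing is read from that difference. The 7 genes were *Mcpt8*, *Prss34*, *Cpa3*, *Hdc*, *Fcer1a*, *Ms4a2* and *Cd200r3*, while *Gata2*, *Kit* and *Il4* overlapped. At the threshold for adjusted p-values of 0.15, edgeR called 0 of the 10 and 0% of all genes tested (quasi-likelihood test, 0 of 13849). The deleted gene *Il4ra* was not called either (edgeR adjusted p = 0.618), with a log2 fold change of -1.67 ± 0.41 (SE) and no overlap. DESeq2 called it lower (adjusted p = 0.0111). A count of 0 in edgeR is therefore not evidence of no difference. Before adjustment, 8 of the 10 were higher at a p-value under 0.05 in edgeR, where 3.72% of all genes tested were, and 1120 genes passed in either direction. With DESeq2, 3 of the 10 were called higher (*Cpa3*, *Hdc* and *Ms4a2*), where 0.279% of the genes it tested were. The choice of the 10 genes used this contrast, so nothing is read from these shares either.

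**Figure D1:**
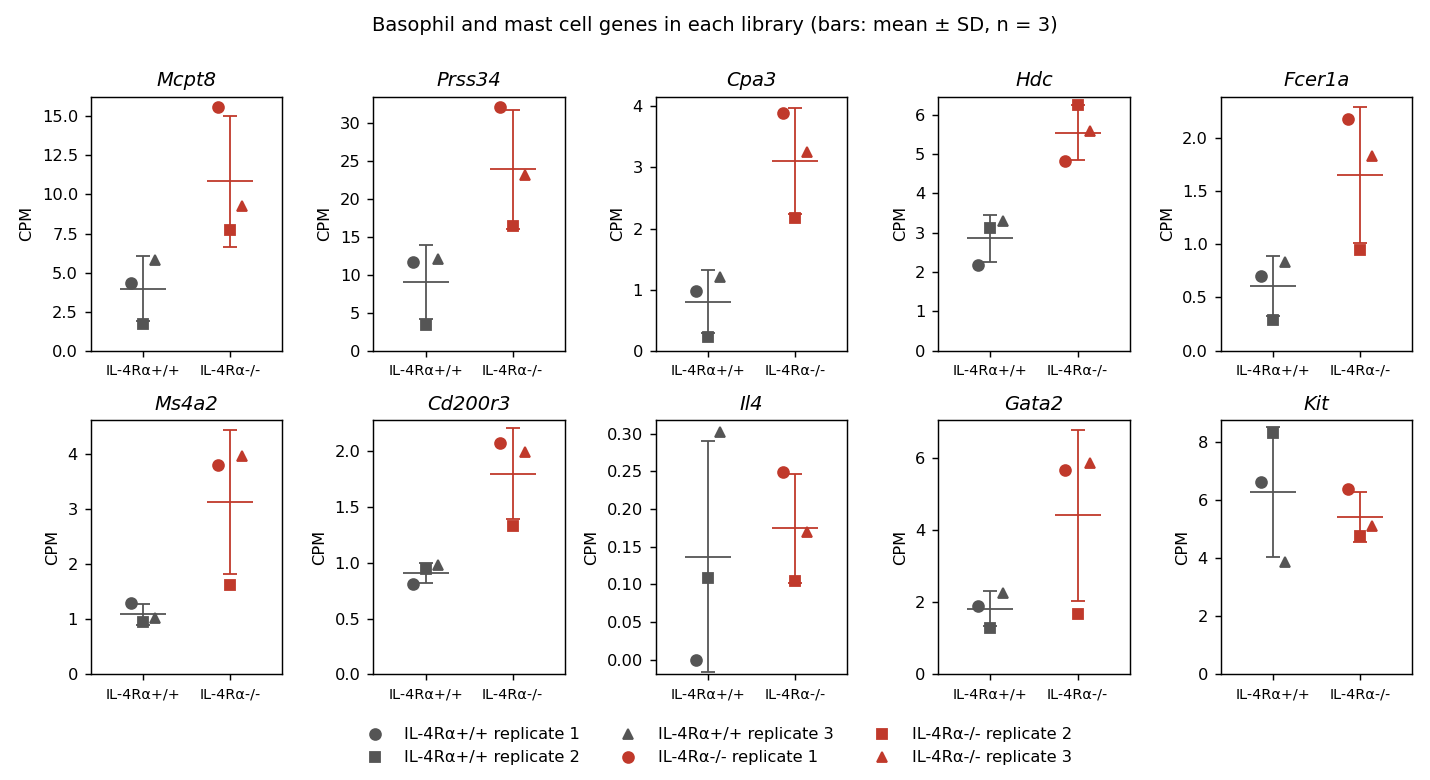
Level of each of the 10 genes in CPM (vertical axis, a separate linear scale for each gene) in the 3 IL-4Rα+/+ (grey) and 3 IL-4Rα-/- (red) libraries, with symbols for the replicate and horizontal lines and bars for the mean and SD. The symbols of the genotypes lie apart in 7 panels, from *Mcpt8* to *Cd200r3*, and overlap for *Il4*, *Gata2* and *Kit*.

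The granule proteases come first. *Mcpt8* (ENSMUSG00000022157.8, GRCm38 chromosome 14 from 56082166 to 56085273, minus strand) encodes mast cell protease 8, which despite its name is a basophil protease. Its level was 4.36, 1.70 and 5.81 CPM in IL-4Rα+/+ replicates 1, 2 and 3, and 15.6, 7.71 and 9.23 CPM in IL-4Rα-/- replicates 1, 2 and 3. IL-4Rα+/+ replicate 2 was the lowest and IL-4Rα-/- replicate 1 the highest, with no overlap. The means were 3.96 ± 2.09 and 10.8 ± 4.17 CPM (SD, n = 3), and the log2 fold change was 1.45 ± 0.48 (SE).

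*Prss34* (ENSMUSG00000056399.2, chromosome 17 from 25298394 to 25300165, plus strand), the gene of the basophil tryptase-like protease MCPT11, had the highest mean level of the 10 in each genotype, although *Kit* lay above it in IL-4Rα+/+ replicate 2 (8.32 against 3.44 CPM). IL-4Rα+/+ libraries had 11.6, 3.44 and 12.0 CPM and IL-4Rα-/- libraries 32.0, 16.4 and 23.1 CPM, in the order of the replicates. Its high and low libraries were those of *Mcpt8*, with IL-4Rα+/+ replicate 2 at the bottom, IL-4Rα-/- replicate 1 at the top and no overlap. The means were 9.04 ± 4.85 and 23.8 ± 7.82 CPM (SD, n = 3), with a log2 fold change of 1.40 ± 0.48 (SE).

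*Cpa3* (ENSMUSG00000001865.2, chromosome 3 from 20215620 to 20242181, minus strand) encodes carboxypeptidase A3, a granule enzyme of both mast cells and basophils. Counts were 28, 6 and 32 in IL-4Rα+/+ and 109, 62 and 96 in IL-4Rα-/- libraries, or 0.984, 0.217 and 1.21 CPM against 3.89, 2.17 and 3.25 CPM. No library of one genotype reached into the range of the other. Its log2 fold change of 1.95 ± 0.58 (SE), from means of 0.803 ± 0.520 and 3.10 ± 0.869 CPM (SD, n = 3), was the largest of the 9 fitted genes. The 6 counts of IL-4Rα+/+ replicate 2 weigh on it, as the value was 1.5 without that library and at most 2.36 when another was left out.

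*Hdc* (ENSMUSG00000027360.5, chromosome 2 from 126593667 to 126619299, minus strand) encodes histidine decarboxylase, the enzyme that makes histamine. It had 2.18, 3.11 and 3.28 CPM in IL-4Rα+/+ and 4.82, 6.23 and 5.58 CPM in IL-4Rα-/- libraries, without overlap. Here the order of the libraries differed from that of the proteases, with IL-4Rα+/+ replicate 1 the lowest and IL-4Rα-/- replicate 2 the highest. The spread within a genotype was narrow, 2.86 ± 0.595 and 5.54 ± 0.708 CPM (SD, n = 3), for a log2 fold change of 0.96 ± 0.23 (SE).

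Both chains of the IgE receptor that are particular to these cells were measured at low counts. *Fcer1a* (ENSMUSG00000005339.10, chromosome 1 from 173221284 to 173227214, minus strand), the IgE-binding chain, had 20, 8 and 22 counts in IL-4Rα+/+ and 61, 27 and 54 counts in IL-4Rα-/- libraries. On the CPM scale these were 0.703, 0.289 and 0.831 against 2.18, 0.946 and 1.83, so the lowest IL-4Rα-/- library lay only just above the highest IL-4Rα+/+ library. The means were 0.608 ± 0.283 and 1.65 ± 0.635 CPM (SD, n = 3), and the log2 fold change was 1.44 ± 0.49 (SE). *Ms4a2* (ENSMUSG00000024680.12, chromosome 19 from 11615523 to 11623719, minus strand), the β chain, had 1.30, 0.941 and 1.02 CPM in IL-4Rα+/+ and 3.78, 1.61 and 3.96 CPM in IL-4Rα-/- libraries. IL-4Rα+/+ libraries were close together and IL-4Rα-/- replicate 2 lay between them and the other IL-4Rα-/- libraries. From means of 1.09 ± 0.189 and 3.12 ± 1.31 CPM (SD, n = 3), its log2 fold change was 1.52 ± 0.39 (SE).

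The rest of the IgE pathway, which monocytes use for other receptors, had a median log2 fold change of -0.011, against 0.0084 over all genes tested. Of these 14 listed genes besides *Fcer1a* and *Ms4a2*, 6 had a fold change above 0 and 8 below, and edgeR called 0 of them. *Fcer1g*, the shared γ chain, had a mean of 639 CPM and a log2 fold change of 0.12 ± 0.08 (SE), with overlap. Beyond *Fcer1a* and *Ms4a2*, the genotypes lay apart in 3 genes, all lower in IL-4Rα-/-, as were 7.87% of all genes tested: *Syk*, the kinase that docks on the γ chain, *Plcg2*, a phospholipase, and *Inpp5d*, an inhibitory lipid phosphatase. Their log2 fold changes were -0.22, -0.18 and -0.13.

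*Cd200r3* (ENSMUSG00000036172.17, chromosome 16 from 44943678 to 44981380, plus strand) encodes an activating receptor of the CD200 receptor family that marks mouse basophils and mast cells. Its levels were 0.808, 0.941 and 0.982 CPM in IL-4Rα+/+ and 2.07, 1.33 and 2.00 CPM in IL-4Rα-/- libraries, on 23 to 59 counts. Groups did not overlap, and the IL-4Rα+/+ libraries differed little among themselves. Means of 0.910 ± 0.0907 and 1.80 ± 0.407 CPM (SD, n = 3) gave a log2 fold change of 0.98 ± 0.28 (SE). Of the 75-base windows of its transcripts, 1.80% also occur in another gene, against 1.22% for *Ms4a2* and 0% for the other 8 genes, so few of their reads could be lost to a copy. Among the other genes of the family, *Cd200r4* was also higher without overlap, with a log2 fold change of 0.50 ± 0.18 (SE). *Cd200r1*, the inhibitory receptor of myeloid cells, had 0.68 ± 0.33 (SE) with overlap, and *Cd200r2* had at most 3 counts in any library.

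*Il4* (ENSMUSG00000000869.12, chromosome 11 from 53602982 to 53618669, minus strand), the gene of the cytokine whose receptor was deleted, was barely detected. It had 0, 3 and 8 counts in IL-4Rα+/+ and 7, 3 and 5 counts in IL-4Rα-/- libraries. Only 3 of the 6 libraries were above 3 counts and the genotypes overlapped, so a difference was not detectable at this depth and no fold change is given. Of the other type 2 cytokines, *Il13* had 0 to 4 counts, and *Il5* and *Il3* had 0 counts in each library, which allows up to 0.103 to 0.112 CPM.

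*Gata2* (ENSMUSG00000015053.14, chromosome 6 from 88193891 to 88207032, plus strand) followed the other genes in 2 of the 3 IL-4Rα-/- libraries. It had 1.90, 1.30 and 2.27 CPM in IL-4Rα+/+ and 5.68, 1.68 and 5.89 CPM in IL-4Rα-/- libraries. IL-4Rα-/- replicate 2, the IL-4Rα-/- library highest in *Il4ra* and in pancreatic enzymes, fell inside the IL-4Rα+/+ range while replicates 1 and 3 lay above it. The log2 fold change was 1.28 ± 0.50 (SE), from means of 1.82 ± 0.486 and 4.41 ± 2.37 CPM (SD, n = 3), and it was 1.66 without IL-4Rα-/- replicate 2, when the genotypes no longer overlapped. *Gata1*, which erythroid, megakaryocyte and eosinophil cells use, had 32, 2 and 14 counts against 30, 27 and 78 counts, with overlap and a log2 fold change of 1.42 ± 0.82 (SE). Over the 14 listed GATA and lineage factors the median log2 fold change was 0.05, with 0 called by edgeR. Only *Stat5a* and *Stat5b*, mediators of growth factor signals, lay apart among them, both lower in IL-4Rα-/-, as were 7.87% of all genes tested. Their log2 fold changes were -0.18 and -0.15.

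*Kit* (ENSMUSG00000005672.12, chromosome 5 from 75574916 to 75656722, plus strand) did not share the pattern. Its levels were 6.64, 8.32 and 3.89 CPM in IL-4Rα+/+ and 6.39, 4.76 and 5.11 CPM in IL-4Rα-/- libraries. All 3 IL-4Rα-/- libraries fell within the IL-4Rα+/+ range, and the highest library of the 6 was IL-4Rα+/+ replicate 2, the one in which the granule proteases were lowest. The means were 6.28 ± 2.24 and 5.42 ± 0.858 CPM (SD, n = 3), with a log2 fold change of -0.21 ± 0.30 (SE). *Kit* is also a gene of blood progenitors, whose listed markers summed to 102 to 123 CPM in IL-4Rα+/+ and 102 to 113 CPM in IL-4Rα-/- libraries. *Flt3* supplied 82.3 CPM of the mean sum of 112 CPM in IL-4Rα+/+ mice. Of the 7 progenitor genes tested, 5 had a log2 fold change above 0 and 2 below, with a median of 0.10. *Prom1*, at 1.34 ± 0.48 (SE), was higher without overlap, where 7.63% of all genes tested were. The *Kit* ligand *Kitl* had a log2 fold change of 0.56 ± 0.30 (SE), with overlap.

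**Figure D2:**
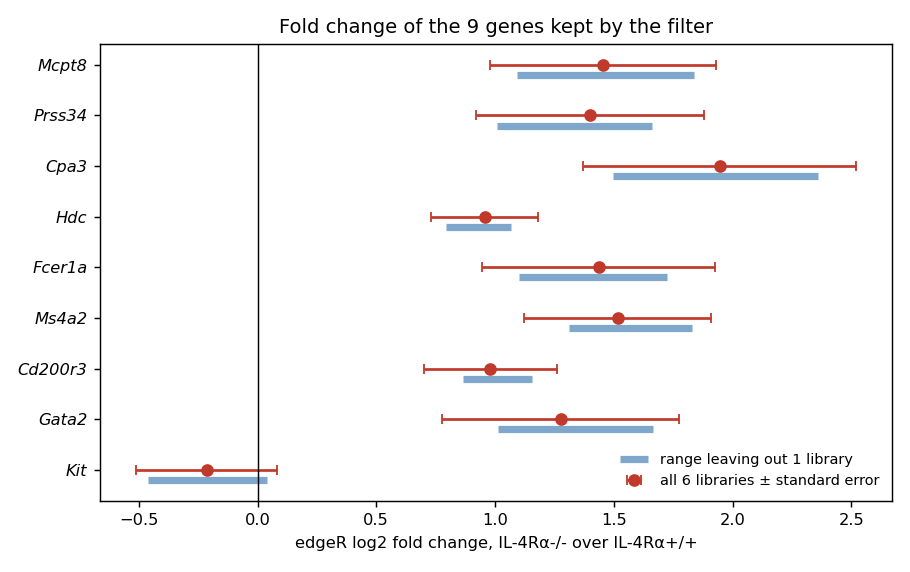
Log2 fold change of IL-4Rα-/- over IL-4Rα+/+ (horizontal axis) of the 9 genes kept by the filter, as points with standard errors from the edgeR fit of all 6 libraries, and blue bars for the range when 1 library was left out. The points run from 0.96 for *Hdc* to 1.95 for *Cpa3* in 8 genes, and *Kit* is at -0.21 with a range from -0.46 to 0.041.

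Per kilobase of exon, which allows levels of different genes to be compared, the order of the genes was led by the same proteases in both genotypes. *Prss34* had 7.41 ± 3.98 and *Mcpt8* 3.96 ± 2.09 CPM per kilobase (SD, n = 3) in IL-4Rα+/+ mice, and 19.5 ± 6.41 and 10.9 ± 4.18 in IL-4Rα-/- mice. Their mean ± SD intervals overlapped each other in both genotypes, and both lay above the next gene. *Kit* came next in IL-4Rα+/+ mice at 0.705 ± 0.251 CPM per kilobase but was eighth in IL-4Rα-/- mice at 0.608 ± 0.096. The genes from *Kit* down to *Gata2* (0.337 ± 0.090) in IL-4Rα+/+ mice, and from *Cpa3* (2.05 ± 0.573) down to *Kit* in IL-4Rα-/- mice, each overlapped their neighbour in the order. *Cd200r3* was ninth and *Il4* last in both, at 0.152 and 0.112 CPM per kilobase in IL-4Rα+/+ and at 0.301 and 0.142 in IL-4Rα-/- mice.

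How far the genes moved together was read from their counts per *Mcpt8* count within a library, which no scaling between libraries can change. *Prss34* kept the steadiest ratio, from 2.02 to 2.67 counts per *Mcpt8* count, although the level of *Mcpt8* itself ran from 1.70 to 15.6 CPM. As a share of the counts of both genes, *Prss34* made up 66.9% in IL-4Rα+/+ replicate 2 (95% exact binomial interval 58.5 to 74.6) and 72.7% in IL-4Rα+/+ replicate 1 (68.4 to 76.8), the lowest and the highest library. *Fcer1a* ranged from 0.123 to 0.198 counts per *Mcpt8* count, 1.61 times from lowest to highest. The intervals cover counting error only, and reads carried no molecular identifiers.
The other genes spread more. *Cpa3* had 0.128 counts per *Mcpt8* count in IL-4Rα+/+ replicate 2 and 0.352 in IL-4Rα-/- replicate 3, 2.75 times apart, and its 3 IL-4Rα-/- ratios lay above the 3 IL-4Rα+/+ ratios. *Ms4a2*, *Gata2* and *Cd200r3* spread 3.16, 3.51 and 4.16 times. For *Hdc* the ratio ran from 0.310 to 1.83, a spread of 5.91 times, and for *Kit* from 0.411 to 4.89, a spread of 11.9 times. The *Kit* ratios of the 3 IL-4Rα-/- libraries all lay below those of the 3 IL-4Rα+/+ libraries. The highest ratios of *Ms4a2*, *Gata2*, *Cd200r3*, *Hdc* and *Kit* were all in IL-4Rα+/+ replicate 2, which had the fewest *Mcpt8* counts (47). *Mcpt8* and *Prss34* together made up 25.2% of the summed level of the 10 genes in the lowest library and 62.1% in the highest.

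**Figure D3:**
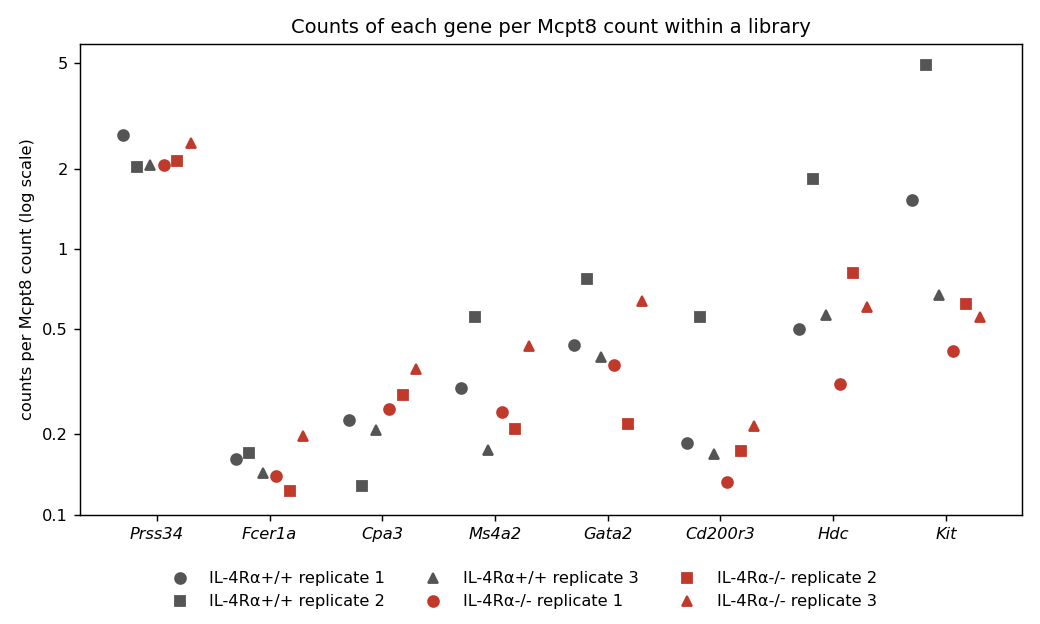
Counts of 8 genes divided by the counts of *Mcpt8* in the same library (vertical axis, log scale), for 3 IL-4Rα+/+ (grey) and 3 IL-4Rα-/- (red) libraries. The *Prss34* symbols lie between 2.02 and 2.67, while *Hdc* and *Kit* spread 5.91 and 11.9 times, with IL-4Rα+/+ replicate 2 highest for both.

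The mast cell side of the name was then checked with 12 genes of mast cell granules and receptors. Of these, 8 had 0 counts in all 6 libraries: the chymases and related proteases *Mcpt1*, *Mcpt4* and *Mcpt9*, the tryptases *Tpsb2*, *Tpsab1* and *Tpsg1*, and the receptors *Mrgprb1* and *Mrgprb2*. A count of 0 allows up to 0.103 to 0.112 CPM. *Mcpt2* had 1 to 5 counts, *Rab27b* 0 to 5 counts, and the chymase *Cma1* 12, 10 and 9 counts in IL-4Rα+/+ against 8, 2 and 17 in IL-4Rα-/- libraries. *Mitf*, a factor that monocytes and macrophages also express, was at 22.4 CPM with a log2 fold change of 0.11 ± 0.17 (SE). The summed level of the list was 21.2 to 22.6 CPM in IL-4Rα+/+ and 18.0 to 28.2 CPM in IL-4Rα-/- libraries, nearly all of it *Mitf*. Thus the tryptases and most of the listed chymases were at 0, while *Cma1* was seen at low counts, and in IL-4Rα+/+ replicate 2 its 10 counts exceeded those of *Cpa3* (6) and *Fcer1a* (8). The basophil proteases *Mcpt8* and *Prss34* were present in each library.

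Of 16 other genes known from basophils, most of which monocytes or lymphocytes share, 14 passed the filter. Of these, 1 was higher in IL-4Rα-/- without overlap, near the 7.63% of all genes tested. *Cyp11a1*, a steroid-making enzyme found in basophils and mast cells, was the only one without overlap, with 15, 22 and 20 counts in IL-4Rα+/+ and 60, 45 and 76 counts in IL-4Rα-/- libraries. Its log2 fold change was 1.59 ± 0.31 (SE), and it passed the threshold in DESeq2 (adjusted p = 0.0361) but not in edgeR (adjusted p = 0.618). *Itga2*, the integrin that carries the DX5 epitope of basophils and natural killer cells, had 0.20 ± 0.44 (SE) and *Il3ra*, the IL-3 receptor chain, 0.21 ± 0.10 (SE), both with overlap. The prostaglandin receptor *Ptgdr2* had 0 to 9 counts. The median log2 fold change of the 14 genes was 0.06, against 0.0084 over all genes tested and 1.40 over the 9 fitted genes of the main list, whose choice used this contrast.

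Markers of other cell types that the selection could leave behind moved in part with the 10 genes. Of 12 listed erythroid genes 11 were found, and 10 of these were higher in IL-4Rα-/- without overlap, where 7.63% of all genes tested were. The median log2 fold change of the erythroid genes was 1.43. Their sum was 71.8 to 134 CPM in IL-4Rα+/+ and 194 to 463 CPM in IL-4Rα-/- libraries, and it was highest in IL-4Rα-/- replicate 3, not in replicate 1 as for the proteases. For red pulp macrophages, 3 of 8 genes lay apart (*Spic*, *Slc40a1* and *Axl*), the median log2 fold change was 0.52, and the sum was 2872 to 3372 against 3807 to 5830 CPM.
Among 10 eosinophil genes, of which 9 passed the filter, *Prg2*, *Ear1* and *Ccr3* were higher without overlap, where 7.63% of all genes tested were. Of the 9 genes, 7 had a log2 fold change above 0. The 2 below 0, *Ear2* at -0.37 and *Siglecf* at -0.56, overlapped. *Epx*, the eosinophil peroxidase, had the largest fold change of the list, 1.89 ± 1.07 (SE), also with overlap. The median log2 fold change of the eosinophil list was 0.95. The sums overlapped at 172 to 288 and 190 to 342 CPM, and *Ear2*, which macrophages and monocytes also express, made up 67.3% of the mean sum in IL-4Rα+/+ mice. Without *Ear2*, left out after its values were seen, the sums lay apart at 75.5 to 84.8 and 109 to 177 CPM. *Prg2*, the eosinophil major basic protein, is also made by basophils, and it had a log2 fold change of 1.48 ± 0.60 (SE). Neutrophil granule genes had a median log2 fold change of 1.23 with overlapping sums of 61.1 to 281 and 136 to 684 CPM, the highest in IL-4Rα-/- replicate 2. Of the 11 tested, 10 had a log2 fold change above 0, and 2 were higher without overlap, where 7.63% of all genes tested were. *Mmp8* supplied 73.5 of 141 CPM of their mean sum in IL-4Rα+/+ and 135 of 354 CPM in IL-4Rα-/- mice. For any list edgeR called 0 genes. DESeq2 called 3 of the 11 erythroid genes higher (*Hba-a1*, *Hbb-bt* and *Slc4a1*), 1 eosinophil gene (*Ear1*) and 1 neutrophil granule gene (*Camp*). Of all genes it tested, 0.279% were called higher. Sums of the megakaryocyte, T cell and innate lymphoid, and B and plasma cell lists overlapped between the genotypes. Single genes made up much of these mean sums in IL-4Rα+/+ mice. *Vwf* supplied 38.4 of 41.9 CPM, *Cd4* 53.5 of 90.4 CPM and *Jchain* 112 of 155 CPM, in that order of the lists. No defining marker of the erythroid, eosinophil or red pulp macrophage list was at 0 in all libraries. The part of these cells in the levels of the 10 genes was not tested.

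**Figure D4:**
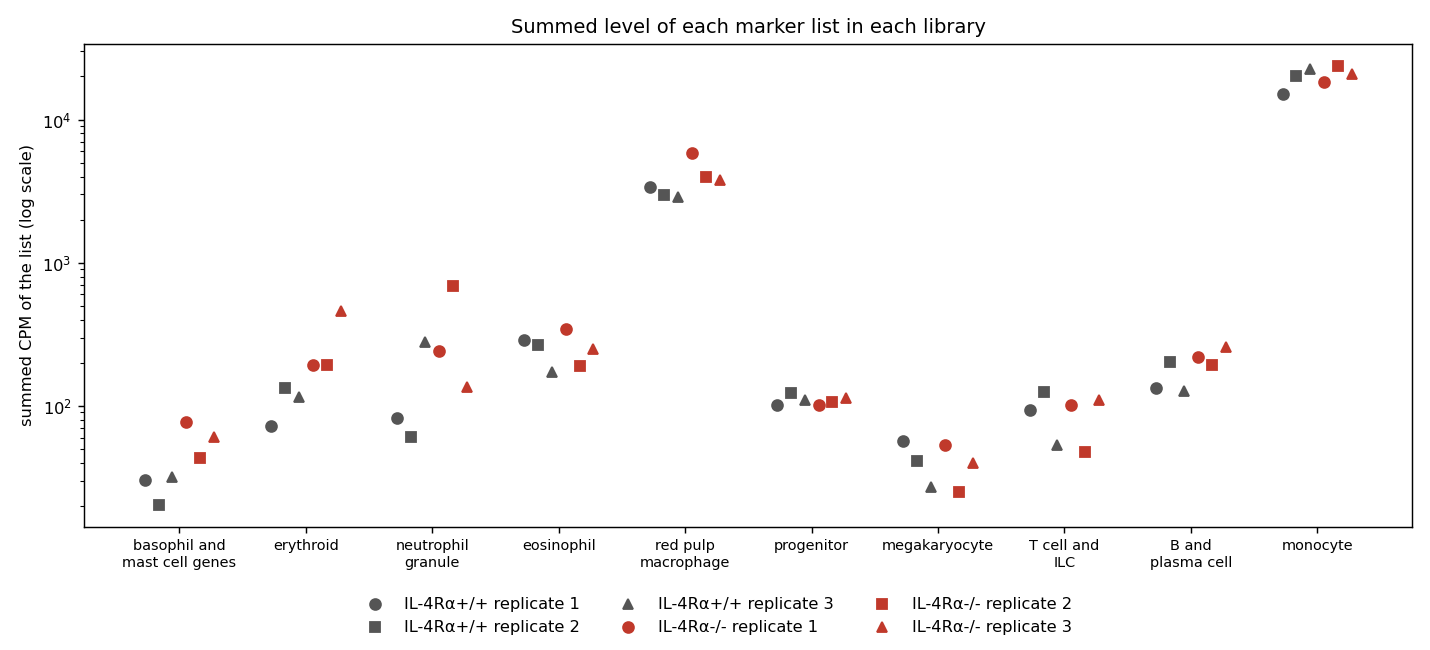
Summed CPM of each marker list (vertical axis, log scale) in the 3 IL-4Rα+/+ (grey) and 3 IL-4Rα-/- (red) libraries. The genotypes lie apart for the basophil and mast cell genes (20.4 to 31.6 against 42.9 to 76.6 CPM), the erythroid and the red pulp macrophage list, and overlap in the other 7 lists.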

How the data were processed

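Spleen monocytes of 6 mice, 3 of each genotype, were sequenced as 75-base single-end reads of polyadenylated RNA. The authors aligned the reads to GRCm38 with STAR 2.6.1a (version per the submitters' processing notes) and deposited whole-number counts per gene, without normalization. The strand column they kept is not given in the sources used here. STAR's 4 summary lines, 21.1% to 22.8% of the reads, were left out.

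Symbols, exon lengths and positions came from Gencode M21, which held 55240 of 55421 identifiers, and none of the 10 genes overlapped an annotated exon of another gene. Genes were kept by filterByExpr (minimum count 10), scaled by TMM and fitted in edgeR 4.0.16 (R 4.3.3, legacy dispersion) by its quasi-likelihood method. P-values were adjusted after Benjamini and Hochberg, and 0.15, the threshold of the study, was used. DESeq2 1.42.0 was run beside it. The scripts were tested on simulated data. Adjusted p-values in the text come from these fits over all genes. Each fit sets the difference of the genotypes against the spread between mice, which is shared in part over genes.

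The 10 genes and the gene lists were chosen with earlier results of these data known. All 10 genes, *Il4ra* and the 8 genes most like the 10 were named. From each list the genes that could be named were the 4 with the highest level, the 4 with the largest fold change and markers at or near 0. *Itga2*, *Inpp5d*, *Stat5a*, *Spic*, *Axl*, *Siglecf* and *Epor* were named after their values were seen. Likeness was the Pearson correlation of log2 CPM (prior count 2) with the mean standardised level of the 9 fitted genes. Alternatives changed normalization, test, filter, threshold, dispersion, covariates, block and members, or left out 1 library.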

Additional observations from a re-analysis of the deposited data

How the results depend on the processing

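With edgeR, 0 genes were called under each of 13 alternatives, and the exception was DESeq2, which called 80. Genes at an unadjusted p-value under 0.05 numbered 1120 with all libraries, but 627 without IL-4Rα+/+ replicate 2, 638 without IL-4Rα-/- replicate 1 and 1724 without IL-4Rα+/+ replicate 3. The cause of that gap was not tested. Scaling by library totals moved the unadjusted split from 515 higher and 605 lower to 725 higher and 389 lower. Among 117 results for the single genes, 113 kept their direction and side of the threshold, 3 passed it with DESeq2 (*Cpa3*, adjusted p = 0.101; *Hdc*, 0.0566; *Ms4a2*, 0.0998), and *Kit* ranged from -0.46 to 0.041 on the log2 scale with 1 library left out, above 0 without IL-4Rα+/+ replicate 2 only. The log2 ratio of the summed level, 1.12, ranged from 0.91 to 1.31 when 1 library was left out, and was 0.97 without *Prss34*. Chosen after seeing the data, it was 1.36 without *Kit* and 0.80 without *Mcpt8* and *Prss34*, edgeR's newer dispersion estimate also called 0 genes, and the log2 ratio of the eosinophil sum went from 0.11 to 0.77 without *Ear2*. Between 7 and 8 genes lay apart with 1 library left out: *Gata2* joined without IL-4Rα-/- replicate 2, and *Kit*, lower in IL-4Rα-/-, without IL-4Rα+/+ replicate 3. The labels do not say whether libraries of equal replicate number form pairs. How far libraries of equal number lay from their genotype's mean correlated at 0.185, -0.271 and -0.296 over 13849 genes. With 3 libraries per genotype, these values cannot exclude a pairing. With the replicate number as a block edgeR called 0 genes, 765 had an unadjusted p-value under 0.05, and the log2 ratio of the summed level was 1.11. Depth limits *Il4*, at 0 to 8 counts, and with 3 mice a group the spread of *Cpa3* and *Fcer1a* rests on as few as 6 and 8 counts.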

Other observations

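The genes whose level over the 6 libraries was most like the mean standardised level of the 9 fitted basophil and mast cell genes were *Ddias* (Pearson r = 0.989), *Enho* (0.982), *Btbd11* (0.970), *Lrp11* (0.969), *Ubl4a* (0.969), *Psmc3ip* (0.968), *Igkv5-48* (0.966) and *E2f7* (0.961), among 12103 candidates with a mean of at least 1 CPM. With 6 points that share their scaling and 2 genotypes, such values describe these libraries only. The choice of the 9 genes used the genotype contrast, so genes most like them also tend to separate the genotypes. Nothing is read from that separation. *E2f7*, a repressor of cell cycle genes, had 1.51, 0.470 and 1.17 CPM in IL-4Rα+/+ and 4.36, 2.21 and 3.52 CPM in IL-4Rα-/- libraries, a log2 fold change of 1.67 ± 0.47 (SE), and repeats the order of *Prss34* in having its lowest level in IL-4Rα+/+ replicate 2 and its highest in IL-4Rα-/- replicate 1. *Epor*, the erythropoietin receptor, ranked 12 (r = 0.953) and *Hmox1* of the red pulp macrophage list ranked 45 (r = 0.932). *Cyp11a1* ranked 119 (r = 0.894), next to *Itga2b* of the megakaryocyte list at 121 (r = 0.893).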
